A study of Mus musculus with 2 samples.

Results

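Neutrophils of the young mouse liver were taken as the cells that the authors' deposited annotation named Neutrophils. They numbered 536 of 15835 annotated cells, with 324 of 8166 in the c-Maf KO library and 212 of 7669 in the control library. Each library was a 10x Chromium single-cell RNA-seq sample of FACS-isolated endothelial and hematopoietic cells at postnatal day 15, from 1 male and 1 female mouse whose cells were pooled. By the sample titles the knockout was one of endothelial cell mice, so the neutrophils were read as cells of mice with a deletion in endothelium. The labels mark the libraries KO and WT, and the titles call the WT library control. The allele, the driver of the deletion and the strain are not stated in the labels, and the source is labelled liver endothelium. With 1 library a group there was no replicate and no test. Genotype, litter, animal and library cannot be told apart, and each interval below is a 95% interval that covers counting error only.

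The libraries held 9058 barcodes and 60281713 unique molecular identifiers (UMIs, each standing for 1 captured transcript) for c-Maf KO, and 9038 barcodes and 54143192 UMIs for control. Maf, the deleted gene (chromosome 8, 115682942-115707794 in GRCm38 by GENCODE M21), stood at 162 CPM (UMIs of a gene per 1000000 UMIs summed over the cells) in the endothelial clusters of c-Maf KO and 2070 CPM in those of control, in the direction of the labels. Both libraries held 25 barcode sequences in common, 0 of them in neutrophils. Neutrophils gave a median of 7653.5 UMIs in c-Maf KO mice (542 to 40624) and 5576 in control mice (722 to 35782), and 2830029 and 1908968 UMIs in all. Median counts over the other hematopoietic cells ran the other way, 3717 UMIs in c-Maf KO and 4622 in control. Scrublet, a doublet caller, marked 13 c-Maf KO neutrophils (4.01%) and 1 control neutrophil (0.472%).

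Neutrophils arise from myeloid progenitors that pass through promyelocyte, myelocyte, metamyelocyte and band stages. Their granule proteins are made in waves. Promyelocytes make the primary (azurophil) granule enzymes such as myeloperoxidase and neutrophil elastase. Myelocytes and metamyelocytes make specific granule proteins such as lactoferrin and cathelicidin, and later cells make gelatinase granule proteins and then surface receptors and cytokines. Division stops at about the passage from myelocyte to metamyelocyte. The liver is a blood-forming organ before birth, and this role passes to the bone marrow around birth.

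The marker genes bore out the name. S100a8 and S100a9, which encode the calcium-binding subunits of calprotectin, were seen in nearly every neutrophil. S100a8 had a UMI in 99.7% of c-Maf KO neutrophils and 99.1% of control neutrophils, and S100a9 in 100% and 99.1%. Retnlg (resistin-like gamma) had a UMI in 85.8% and 74.5%, Ngp (neutrophilic granule protein) in 60.8% and 57.5%, and Camp (cathelicidin) in 60.2% and 52.8%. The lymphoid cells of the cluster named B3, which should lack these genes, had a UMI of S100a8 in 19.0% of c-Maf KO and 15.2% of control cells, and of Camp in 3.97% and 3.73%. Their median depths were 3612 and 4414 UMIs. All 5 markers were found together in 171 c-Maf KO and 87 control neutrophils, and none in 0 and 1. S100a8 and S100a9 together gave a median of 24.3% of a neutrophil's UMIs in c-Maf KO (0.106% to 50.9%) and 22.1% in control (0% to 45.7%). In 6 c-Maf KO and 7 control cells of the cluster they gave under 1%.

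Neutrophils were sorted into ranges by their granule transcripts. A cell with at least 1% of its UMIs from the primary granule genes Mpo, Elane, Prtn3 and Ctsg was put in a primary granule range. Of the rest, a cell with at least 1% from the specific granule genes Ltf, Camp and Ngp was put in a specific granule range, and all others in a late range. These are ranges of a score, not cell types. Promyelocyte-like cells were almost absent under the neutrophil name, with 1 cell in c-Maf KO (0.309%) and 2 in control (0.943%). The specific granule range held 169 c-Maf KO cells (52.2%, interval 46.6 to 57.7) and 92 control cells (43.4%, 36.6 to 50.4). The late range held 154 c-Maf KO cells (47.5%, 42.0 to 53.1) and 118 control cells (55.7%, 48.7 to 62.5). Between 0.5% and 2% lay 20 c-Maf KO and 11 control cells. Cells just inside it had 1.02% and 1.13% of their UMIs from the specific granule genes in c-Maf KO and 1.25% and 1.28% in control, and cells just outside had 0.926% and 0.718% in c-Maf KO and 0.936% and 0.833% in control. Specific granule UMIs were at 0 in 119 c-Maf KO and 83 control cells. Cells of the late range were the shallower ones, with median depths of 2622.5 (c-Maf KO) and 2715 UMIs (control) in the late range, against 10103 and 12510 in the specific granule range.

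**Figure D1:**
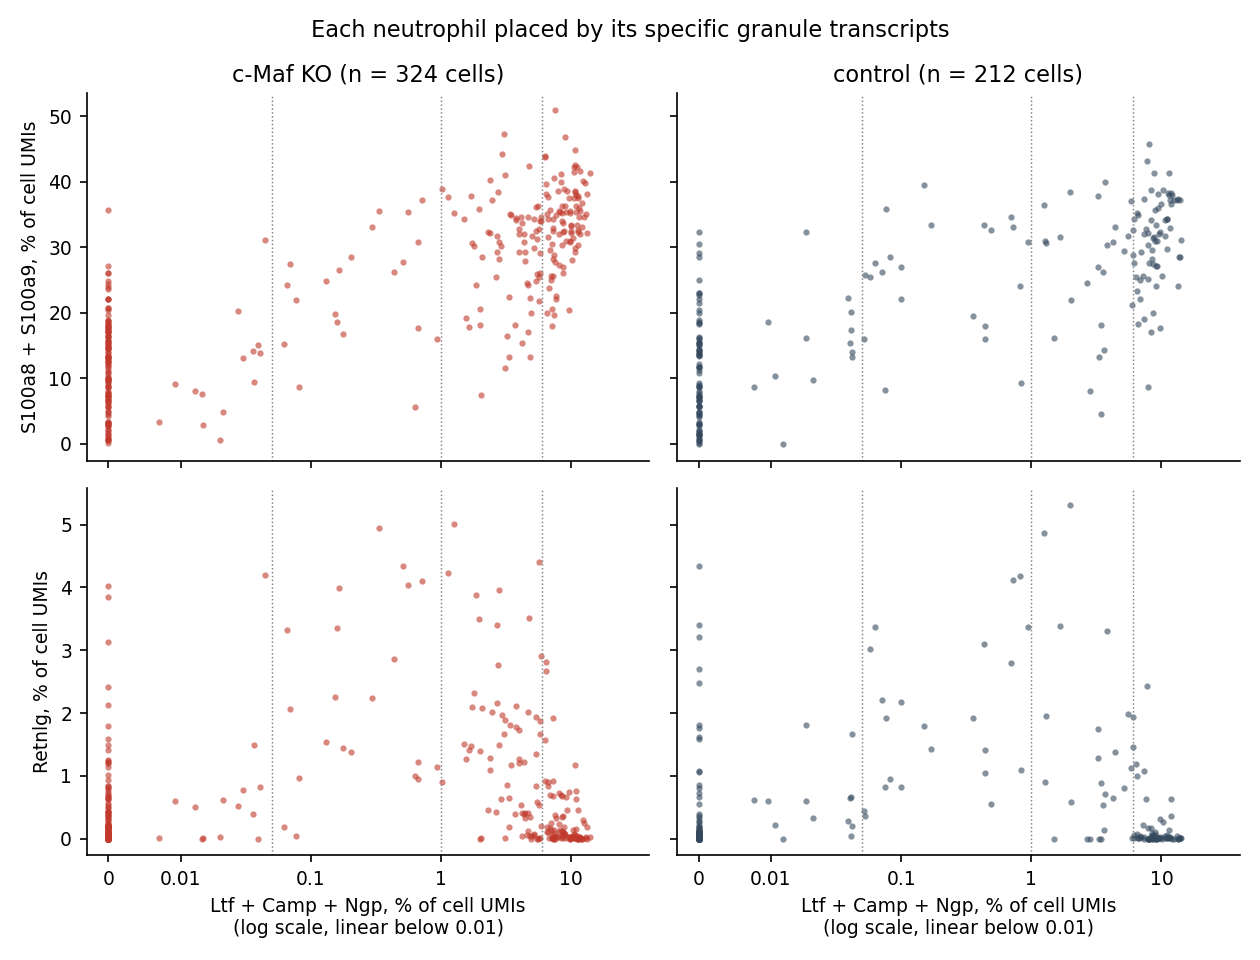
Each point is 1 neutrophil (left, 324 c-Maf KO; right, 212 control). The x axis gives the percent of the cell's UMIs from Ltf, Camp and Ngp on a log scale, the y axis that of S100a8 and S100a9 (top row) or Retnlg (bottom row), and dotted lines stand at 0.05%, 1% and 6%. The S100a8 and S100a9 share climbs toward the right, and the Retnlg share is highest between the lines at 0.05% and 6%.

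The cells with the most primary granule RNA lay mostly outside the neutrophil cluster. Of all UMIs of Mpo, Elane, Prtn3 and Ctsg in annotated cells, 84.5% in c-Maf KO (of 10780) and 67.9% in control (of 11240) were in the cluster named C1. Neutrophils held 7.08% of them in c-Maf KO and 21.3% in control. The 1% cut was passed by 12 of 637 C1 cells in c-Maf KO and by 6 of 272 in control. In those C1 cells Prtn3 (proteinase 3) stood at 14498 CPM in c-Maf KO and 21541 CPM in control. Ltf, Camp and Ngp stood there at 4.02, 893 and 535 CPM in c-Maf KO and at 0, 35.0 and 152 CPM in control. The neutrophil name thus takes in few cells of the primary granule stage. All 3 neutrophils of the primary granule range scored as G2/M cells, and they shared Prss57, a further primary granule serine protease, at 307 CPM in the c-Maf KO cell and 370 CPM in the control cells.

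The specific granule genes used for the ranges lie near each other on chromosome 9 (GRCm38, GENCODE M21), Camp at 109847379-109849617 on the minus strand, Ngp 570.13 kb further on and Ltf another 596.259 kb on. Prtn3 lies on chromosome 10 only 3.073 kb before Elane. The 250 bases before the RefSeq start of 6 granule genes are shown, since the neutrophils move through these genes in order and their 5′ flanks differ in motif content. The flanks were searched on both strands for an 8-letter C/EBP motif (TTGCNNAA, or TTNNGCAA on the other strand) and for the core of the PU.1 motif (GAGGAA, or TTCCTC), and matches are in capitals. Sequences are from RefSeq (GRCm38.p6) and are written on the gene's strand.
Prtn3, proteinase 3 of the primary granule, chr10:79879417-79879666, plus strand: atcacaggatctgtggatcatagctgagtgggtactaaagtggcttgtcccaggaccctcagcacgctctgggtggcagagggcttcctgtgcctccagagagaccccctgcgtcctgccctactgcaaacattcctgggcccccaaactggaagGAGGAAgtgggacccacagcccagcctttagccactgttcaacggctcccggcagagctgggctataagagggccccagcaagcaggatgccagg
Camp, cathelicidin, chr9:109849457-109849706, minus strand: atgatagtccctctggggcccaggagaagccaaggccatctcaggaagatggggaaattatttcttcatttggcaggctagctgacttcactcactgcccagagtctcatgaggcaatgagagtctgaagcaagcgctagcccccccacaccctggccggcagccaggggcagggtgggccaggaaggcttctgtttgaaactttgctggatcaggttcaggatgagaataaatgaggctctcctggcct
Ngp, neutrophilic granule protein, chr9:110419558-110419807, plus strand: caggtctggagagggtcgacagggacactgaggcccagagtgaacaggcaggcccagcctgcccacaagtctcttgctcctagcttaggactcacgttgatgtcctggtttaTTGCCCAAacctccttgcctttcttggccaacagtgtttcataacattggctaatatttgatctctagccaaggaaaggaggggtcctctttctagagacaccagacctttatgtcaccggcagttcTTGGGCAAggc
Ltf, lactoferrin, chr9:111019042-111019291, plus strand: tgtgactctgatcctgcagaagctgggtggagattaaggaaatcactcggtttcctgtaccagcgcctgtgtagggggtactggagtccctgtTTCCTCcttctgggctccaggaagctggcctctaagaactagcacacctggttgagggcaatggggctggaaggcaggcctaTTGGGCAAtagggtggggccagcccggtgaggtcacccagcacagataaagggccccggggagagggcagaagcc
Lcn2, lipocalin 2, which binds iron-carrying siderophores, chr2:32387740-32387989, minus strand: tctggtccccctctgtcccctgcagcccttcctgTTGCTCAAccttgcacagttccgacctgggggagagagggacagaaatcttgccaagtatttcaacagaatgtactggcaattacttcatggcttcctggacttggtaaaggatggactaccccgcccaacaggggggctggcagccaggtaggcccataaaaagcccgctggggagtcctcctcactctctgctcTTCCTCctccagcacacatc
Mmp8, neutrophil collagenase of the gelatinase granule list, chr9:7558179-7558428, plus strand: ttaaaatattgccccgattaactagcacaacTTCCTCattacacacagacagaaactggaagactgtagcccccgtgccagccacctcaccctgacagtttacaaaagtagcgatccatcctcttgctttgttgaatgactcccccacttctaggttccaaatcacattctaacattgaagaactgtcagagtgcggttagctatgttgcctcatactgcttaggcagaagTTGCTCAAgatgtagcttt
Prtn3 held a PU.1 match and no C/EBP match, while Ngp held a pair of C/EBP matches and no PU.1 match. Ltf, Lcn2 and Mmp8 held both kinds, and Camp held neither in this window. The RefSeq start used for Camp lies 161 bases from the nearest GENCODE M21 start, and that for Ngp 61 bases. Except for Mmp8, each window overlaps the GENCODE M21 span of its gene, so by that annotation it is not wholly upstream. The C/EBP match stood in 0 of 10 primary, 6 of 17 specific and 2 of 9 gelatinase granule genes with a RefSeq flank, against 9.55% of 27025 genes. The PU.1 match stood in 8 of 10, 7 of 17 and 5 of 9, against 23.1% of all genes. Matches are letters in a window, not binding sites.

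Along the specific granule score, most specific and gelatinase granule genes reached their highest level in the same step in both libraries. Neutrophils were split into 4 steps after the values were seen: at least 6% of UMIs from Ltf, Camp and Ngp (97 c-Maf KO and 70 control cells), 1% to 6% (73 and 24), 0.05% to 1% (21 and 22) and less (133 and 96). The 3 primary granule cells fell into step 2, where Mpo, Elane and Prtn3 were highest in both libraries. Of 8 measured primary granule genes 4 had the same top step in both, and Prss57, Ms4a3 and Cd63 were highest in step 1 in c-Maf KO and in step 2 in control. Levels of Camp, Ngp and Ltf fall along the steps by construction, so the genes of interest are the others. Of 235 listed genes with at least 50 UMIs in each library, 155 were highest in the same step in both, 51 of them in step 1, 10 in step 2, 23 in step 3 and 71 in step 4.

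Most specific granule genes were highest in step 1. Lcn2 stood at 19061, 10398, 4709 and 944 CPM over steps 1 to 4 in c-Maf KO, and at 19485, 8911, 5590 and 776 CPM in control. Cebpe, the C/EBP factor that specific granule genes depend on, stood at 844, 351, 101 and 37.3 CPM in c-Maf KO, and at 780, 538, 80.8 and 24.5 CPM in control. Both genes were lowest in step 4 in both libraries. Of 19 specific granule genes, 16 were highest in step 1 in both, the 3 genes of the score among them. Slpi, a secreted inhibitor of neutrophil proteases kept on this list, was highest in step 4 in both, and Ceacam10 and Chil1 had different top steps in the libraries.

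Most gelatinase granule genes and Retnlg were highest in step 3. Retnlg stood at 2156, 9062, 19306 and 4309 CPM over the steps in c-Maf KO, and at 1139, 7516, 18657 and 4023 CPM in control. Mmp8 stood at 653, 1719, 1817 and 297 CPM in c-Maf KO, and at 464, 1203, 1572 and 287 CPM in control. Mmp9, which encodes gelatinase B, followed the same hill, at 749, 1510, 1539 and 842 CPM in c-Maf KO and 615, 1154, 1697 and 820 CPM in control. Of 10 gelatinase granule genes, 7 were highest in step 3 in both libraries and 2 in step 4. Step 3 held only 21 and 22 cells, so its levels rest on few cells.

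Inflammatory genes and a part of the receptor genes were highest in step 4. Of 19 late receptor genes, 7 had their top level there in both libraries, 4 in step 3 and 2 in step 1, and 6 had different top steps in the libraries. Csf3r, the receptor for granulocyte colony-stimulating factor, stood at 99.7, 274, 518 and 1198 CPM in c-Maf KO, and at 115, 156, 654 and 1416 CPM in control. Il1b, the precursor of interleukin 1 beta, stood at 40.4, 256, 704 and 2525 CPM in c-Maf KO, and at 93.5, 52.1, 984 and 3588 CPM in control. Neither gene had its top level before step 4 in either library. All 9 inflammatory genes with the same top step in both libraries, of 14 measured, had it in step 4, as did 13 of 22 granulocyte transcription factors. Stfa1, a stefin (an intracellular cysteine protease inhibitor, with near-identical copies among which reads may be split), showed no such slope, at 8955, 11678, 8412 and 9801 CPM in c-Maf KO and 12307, 15155, 14514 and 11305 CPM in control.

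**Figure D2:**
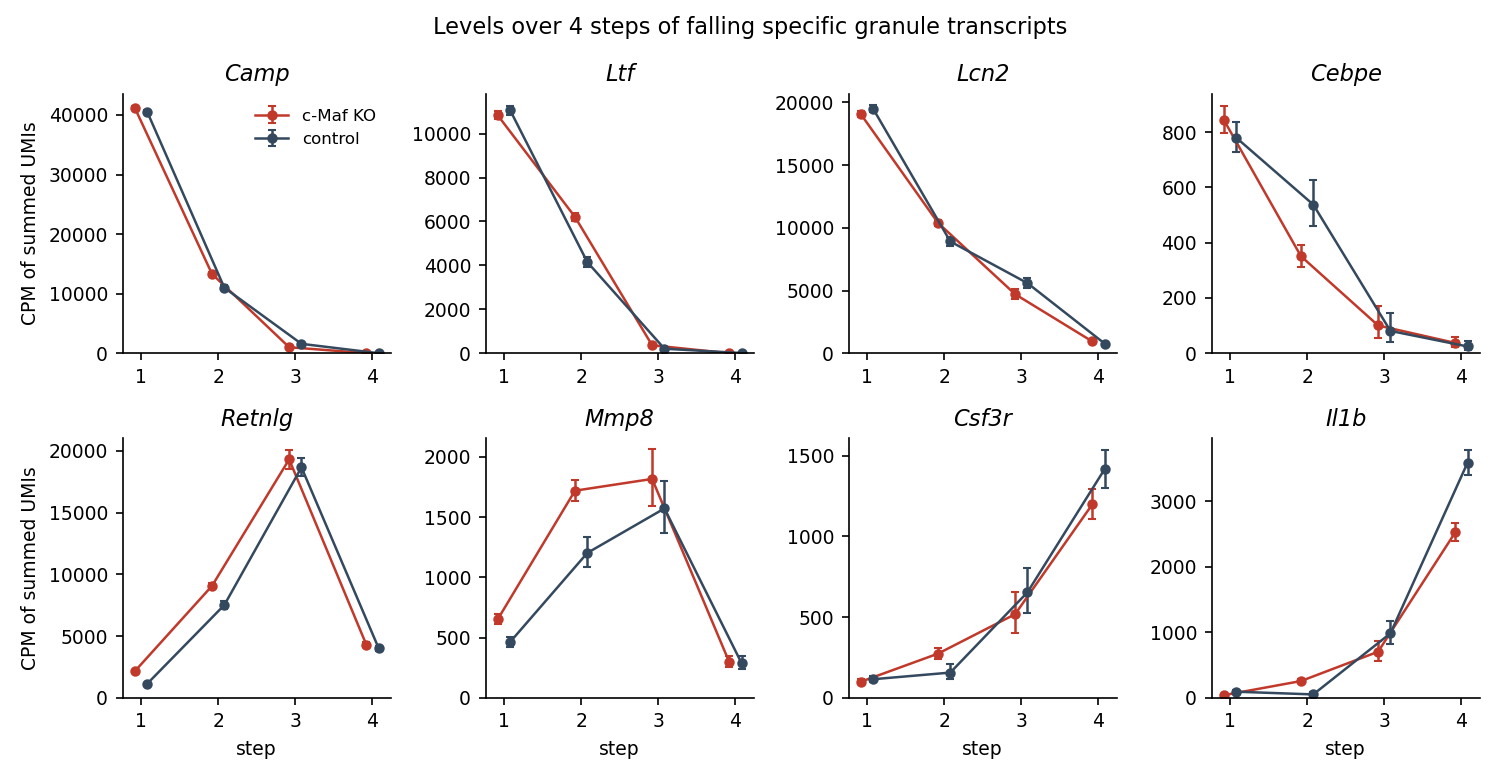
Level (CPM, UMIs summed over the cells of a step; y axis) of 8 genes over the 4 steps (x axis), with c-Maf KO listed before control and bars for 95% Poisson intervals of the counts. Camp, Ltf, Lcn2 and Cebpe are highest in step 1, Retnlg and Mmp8 in step 3, and Csf3r and Il1b in step 4.

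Late range neutrophils were set against specific granule range neutrophils of the same library. A gene was called where the ratio was at least 1.5-fold, its 95% conditional binomial interval left out equality and the sums together held at least 50 UMIs, in the same direction in both libraries. By this rule 1171 of 3553 genes (33.0%) were higher in late cells and 291 (8.19%) were lower. The median log2 ratio over all these genes was 0.44, so a list has to be read against that shift. The late cells are also the shallower ones, and the part of depth in these ratios was not tested. Late cells also held more RNA of other cell types: Kupffer cell markers summed to 887 CPM in c-Maf KO late cells and 1446 in control late cells, against 142 and 495 CPM in the specific granule range. B lineage markers summed to 2048 and 1922 CPM in late cells, against 581 and 191 CPM in the specific granule range.

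Of 19 specific granule genes, 15 were lower in late cells and 1, Slpi, was higher (median log2 ratio −2.48). Lcn2 was at 1676 CPM in late and 15832 CPM in specific range cells of c-Maf KO livers, and at 1981 and 17872 CPM in those of control livers. Lyz2, lysozyme, was at 3549 and 9399 CPM in c-Maf KO and at 1921 and 7722 CPM in control. Of 10 gelatinase granule genes 4 were higher in late cells (Adam8, Slc11a1, Cfp and Ptafr) and 0 lower, with a median of −0.02. Cell division genes followed the specific granule genes: all 20 measured G2/M genes were lower in late cells, with a median of −3.02, and 5 of 9 S phase genes were. Of 10 genes of the NADPH oxidase and of antimicrobial enzymes 6 were lower as well, among them Cybb, the catalytic subunit, at 501 CPM in late and 1560 CPM in specific range cells of c-Maf KO livers and at 449 and 1620 CPM in those of control livers.

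Of 19 late receptor genes 13 were higher in late cells, with a median of 1.53. Cxcr2, the receptor for the chemokines that draw neutrophils into tissue, was at 680 CPM in late and 239 CPM in specific range cells in c-Maf KO, and at 830 and 174 CPM in control. Clec4d, a C-type lectin, was at 433 and 40.7 CPM in c-Maf KO, and at 464 and 27.0 CPM in control. Inflammatory genes gave a list median of 2.48, with 13 of 14 higher and 0 lower. The 6 measured B lineage markers gave a median of 2.61. Il1b was at 2171 CPM in late and 126 CPM in specific range cells in c-Maf KO, and at 2936 and 88.8 CPM in control. Ptgs2, the inducible cyclooxygenase, was at 186 and 10.3 CPM in c-Maf KO, and at 272 and 6.18 CPM in control.

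Transcription factors were split between the ranges too. Cebpe was at 49.6 CPM in late and 650 CPM in specific range cells in c-Maf KO, and at 38.6 and 730 CPM in control. Cebpb, the related factor of mature and stimulated myeloid cells, ran the other way, at 1682 and 491 CPM in c-Maf KO and at 1783 and 470 CPM in control. In all, 16 of 22 factors were higher in late cells, among them the immediate early genes Fos, Junb and Egr1, and Cebpe alone was lower. Cxcr4, the receptor that holds neutrophils in the marrow, was at 125 CPM in late and 52.0 CPM in specific range cells in c-Maf KO, and at 143 and 43.2 CPM in control. Mcl1, which neutrophils need to survive, was at 1600 and 455 CPM in c-Maf KO, and at 1715 and 352 CPM in control. All 5 measured MHC class II genes were higher in late cells, and so were all 6 measured B lineage markers, so the MHC class II count cannot be credited to neutrophils alone.

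The leading genes of each range were taken without those that set the cuts. The specific granule range was led by Chil3 (a chitinase-like lectin), Orm1 (an acute phase glycoprotein), Inhba, Ly75 and Zmpste24. The late range was led by Ptgs2, Il1b, Fgl2, Steap4 and H2-Q10, with Nlrp3, the inflammasome sensor, and the chemokines Ccl6 and Ccl5 also among its 10 leading genes. Ccl5 was at 609 CPM in c-Maf KO and 20.2 CPM in control late cells, and 1 cell held 42.0% of its c-Maf KO late UMIs. T and NK cell markers summed to 624 CPM in c-Maf KO and 46.0 CPM in control late cells. The proliferation genes Mki67 and Top2a were found mainly in the specific granule range. After thinning every cell to 1865 UMIs, Mki67 or Top2a had a UMI in 1.75% of 114 c-Maf KO and 4.67% of 107 control late cells, and in 15.5% of 168 c-Maf KO and 22.2% of 90 control specific range cells. Thinning left out 40 c-Maf KO and 11 control late cells, and the unthinned shares were 5.19% and 5.93% in late cells and 27.8% and 40.2% in specific range cells. In B3 cells the thinned shares were 4.06% in c-Maf KO and 3.38% in control, so the late shares lay near the level of another cell type.

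The c-Maf KO library held more neutrophils among its hematopoietic cells than the control library. They were 6.37% of 5085 hematopoietic cells in c-Maf KO (5.72 to 7.08) and 4.61% of 4599 in control (4.02 to 5.26). These are shares of FACS-isolated cells, and the part of the sort in them was not tested. Kupffer cells, the resident macrophages, were 193 in c-Maf KO and 766 in control. With the Kupffer cluster left out of the denominator, neutrophils were 6.62% in c-Maf KO and 5.53% in control. The share in the specific granule range was 8.76 percentage points higher in c-Maf KO (0.11 to 17.2) and that in the late range differed by −8.13 points (−16.6 to 0.52), so the late range interval holds 0. The specific granule interval also holds 0 with the cut at 2% (−1.20 to 15.8) and without the cells low in S100a8 and S100a9 (−0.50 to 16.8). The late range interval leaves out 0 after thinning (−22.7 to −4.94) and without Scrublet doublets (−17.7 to −0.41). Thinning drops shallow cells unevenly, 40 c-Maf KO and 11 control late cells against 1 and 2 specific range cells. The thinned shares are therefore not shares of the same cells.

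These shares came apart when cells were split by sex. Cells with an Xist UMI and no Y-linked UMI were called female-type, and cells with the reverse male-type, which gave 89 female-type and 81 male-type neutrophils in c-Maf KO and 70 and 29 in control. The remaining 154 and 113 cells, with median depths of 2669 and 3201 UMIs, were put in neither type. The specific granule range held 61.8% of female-type cells in c-Maf KO and 72.9% in control. It held 75.3% of male-type cells in c-Maf KO and 34.5% in control. The difference between libraries was thus −11.1 points (−24.8 to 3.72) in female-type and 40.8 points (19.9 to 57.5) in male-type cells. The neutrophil share of hematopoietic cells was 3.54% in c-Maf KO and 4.14% in control among female-type cells, and 7.23% and 2.43% among male-type cells. Each type is 1 mouse a library, so sex and animal cannot be told apart, and the types are no replicates.

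**Figure D3:**
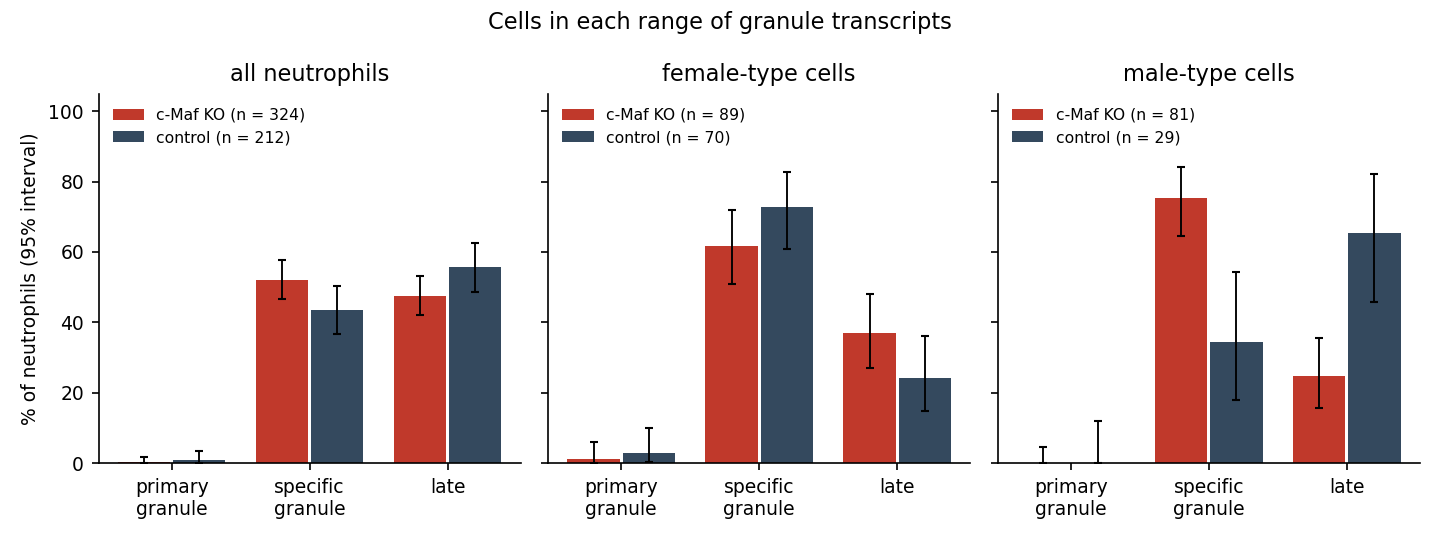
Share of neutrophils (percent, y axis) in the primary granule, specific granule and late ranges, for all cells, female-type and male-type cells, c-Maf KO left of control, with 95% Clopper-Pearson bars. The specific granule share is 52.2% in c-Maf KO against 43.4% in control over all cells, and 75.3% against 34.5% in male-type cells.

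Summed over all neutrophils of a library, granule genes were close in level between c-Maf KO and control apart from the primary granule genes. A gene was called by the same rule of 1.5-fold, interval and 50 UMIs over both sums, which made 214 of 6186 genes (3.46%) higher in c-Maf KO and 328 (5.30%) lower. The median log2 ratio over 8552 genes was −0.01. Of 11 primary granule genes 9 had enough UMIs, and of these 5 were lower and 0 higher, with a median of −1.41 over 10 members with at least 20 UMIs. Prtn3 was at 176 CPM in c-Maf KO and 801 CPM in control (log2 ratio −2.19, interval −2.34 to −2.04). Elane, neutrophil elastase, was at 62.2 CPM in c-Maf KO and 328 CPM in control (−2.40, −2.65 to −2.16). Mpo, myeloperoxidase, was at 28.6 CPM in c-Maf KO and 108 CPM in control (−1.92, −2.31 to −1.54). Much of this RNA lay in few cells: 1 cell held 86.4% of the Mpo UMIs in c-Maf KO and 34.8% in control. With the control mix of the ranges applied to both libraries the list median was −0.62. Without the richest cell of each gene in each library, 6 of 9 genes were lower and 0 higher (median −1.24). Within the specific granule range 5 of 9 were lower and 0 higher (median −1.09). In male-type cells Prtn3 had 155 UMIs in c-Maf KO and 0 in control, the other direction.

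Specific granule genes gave 0 higher and 2 lower of 19, with a median of −0.05. Ltf was at 6911 CPM in c-Maf KO and 6819 CPM in control, Camp at 23165 and 24357 CPM, and Ngp at 24676 and 26252 CPM, all within 1.5-fold. Chil3 was lower, at 508 CPM in c-Maf KO and 836 CPM in control (log2 ratio −0.72, −0.82 to −0.61), and so was Orm1, at 39.2 and 74.9 CPM (−0.93). Lyz2 was at 7944 CPM in c-Maf KO and 5796 CPM in control (0.45), under the fold rule. Gelatinase granule genes gave 1 higher and 0 lower of 10, with a median of 0.26. The higher gene was Mmp8, at 960 CPM in c-Maf KO and 624 CPM in control (0.62, 0.52 to 0.72). Its call was lost in male-type cells (0.10), after thinning (0.42), with the control mix of ranges (0.54) and for the mean of the cells' own CPM (0.41).

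**Figure D4:**
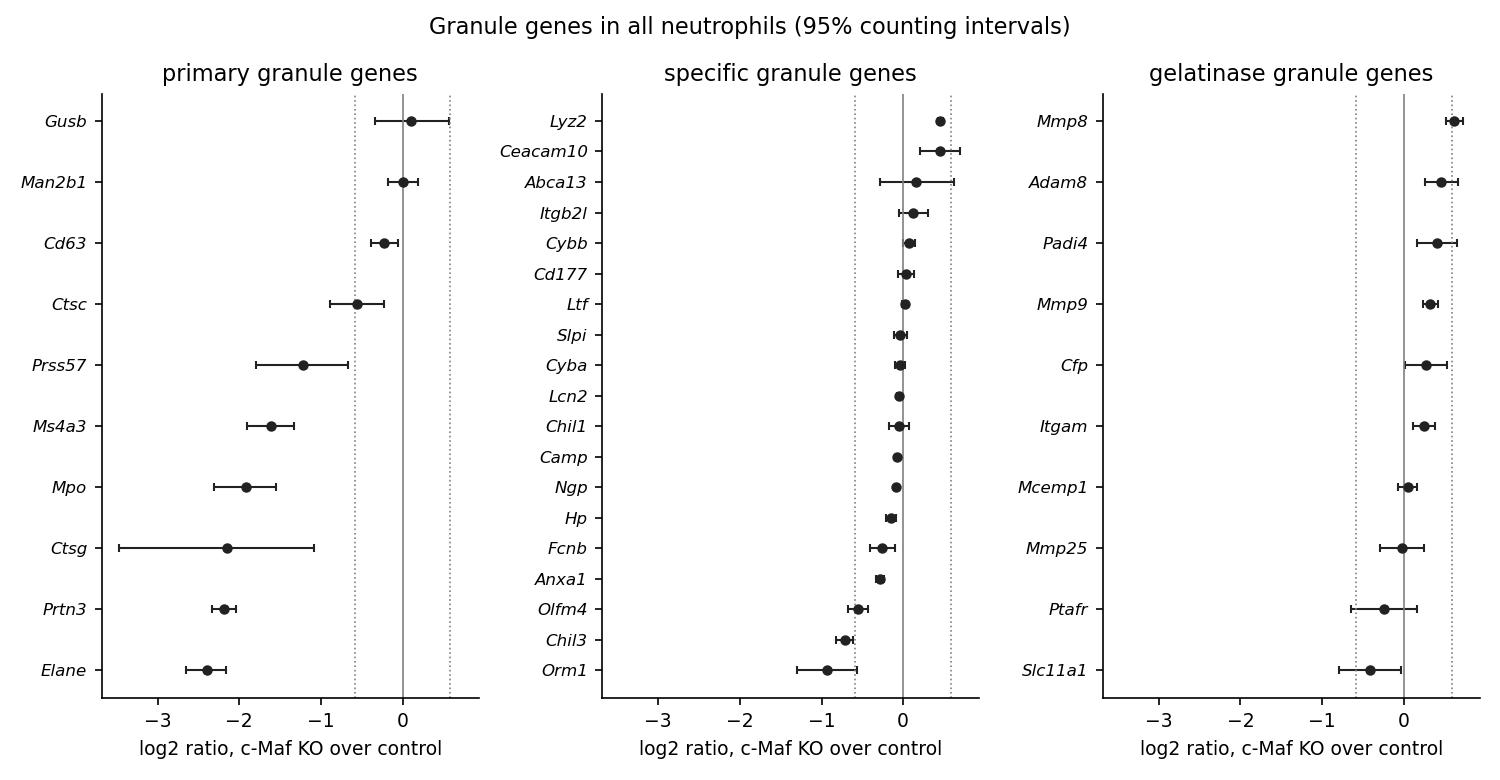
Log2 ratio, c-Maf KO over control (axis), of 10 primary, 19 specific and 10 gelatinase granule genes over all neutrophils, with 95% counting intervals and dotted lines at 1.5-fold either way. Elane, Prtn3, Ctsg and Mpo lie furthest toward lower in c-Maf KO, Ctsg with few UMIs and a wide interval, while Ltf, Camp and Ngp lie near 0 and Mmp8 lies past the line for higher.

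Within the specific granule range several genes with their highest level in a later step were higher in c-Maf KO cells. Of 4864 genes 270 (5.55%) were higher in c-Maf KO and 273 (5.61%) lower. All 7 measured B lineage markers (median 1.35) and 4 of 5 MHC class II genes (median 1.08) were higher, and 0 of either lower. Kupffer cell markers gave 6 of 7 lower and endothelial markers 5 of 5 lower, with 0 higher. The part of other cells' RNA in the calls of this range was not tested. Retnlg was at 4939 CPM in c-Maf KO and 2712 CPM in control (log2 ratio 0.86, 0.81 to 0.92). S100a6, a calcium-binding protein of mature cells, was at 2193 CPM in c-Maf KO and 1126 CPM in control (0.96), and Ifitm1, an interferon-inducible membrane protein with close relatives, at 455 and 167 CPM (1.44). Of 23 late cytosolic and secreted genes 4 were higher (Retnlg, S100a6, Wfdc17 and Ifitm1) and 0 lower, with a median of 0.27. Gelatinase granule genes gave 2 higher, Mmp8 (1087 CPM in c-Maf KO and 664 CPM in control) and Adam8 (181 and 108 CPM), and 0 lower of 10. Specific granule genes called lower ran the other way. Chil3 was at 667 CPM in c-Maf KO and 1226 CPM in control (−0.88), Olfm4 (olfactomedin 4) at 435 and 700 CPM (−0.69), and Orm1 at 52.0 and 109 CPM (−1.07). The range holds different parts of the scale in the libraries: step 2 cells were 22.5% of neutrophils in c-Maf KO and 11.3% in control, step 1 cells 29.9% and 33.0%. In male-type cells of this range 9 of 23 late cytosolic genes were higher and 0 lower, and in female-type cells 3 were higher and 3 lower. The share of all genes called for each type in this range is not given, so these counts have no background.

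Within the late range fewer genes were called, 138 of 3079 (4.48%) higher in c-Maf KO and 89 (2.89%) lower. Specific granule genes gave Lyz2 higher, at 3549 CPM in c-Maf KO and 1921 CPM in control (log2 ratio 0.89, 0.78 to 0.99), and Camp and Anxa1 lower of 15. Camp was at 212 CPM in c-Maf KO and 399 CPM in control, and Anxa1, annexin A1, at 666 and 1019 CPM. Gelatinase granule genes, late receptor genes and late cytosolic genes gave 0 calls of 10, 19 and 23. Csf3r over all neutrophils was at 379 CPM in c-Maf KO and 438 CPM in control, and Cxcr2 at 341 and 354 CPM. Both receptors were within 1.5-fold over all neutrophils, but in male-type cells Csf3r was at 286 CPM in c-Maf KO and 575 CPM in control (log2 ratio −1.01, −1.32 to −0.69). Those male-type cells are of all ranges, and 24.7% of 81 in c-Maf KO and 65.5% of 29 in control were in the late range. The part of that mix in the Csf3r ratio was not tested.

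A part of the inflammatory genes was lower in c-Maf KO neutrophils. Over all neutrophils 5 of 15 were lower and 0 higher (Ccl3, Ccl4, Ptgs2, Acod1 and Csf1), with a median of −0.51. Ccl3, a chemokine for monocytes and neutrophils, was at 51.6 CPM in c-Maf KO and 130 CPM in control (log2 ratio −1.33, −1.64 to −1.03), and it kept its call under every alternative tried. Acod1, the enzyme that makes itaconate, was at 50.2 CPM in c-Maf KO and 87.5 CPM in control (−0.80). In late cells 6 of 14 were lower and 0 higher. Tnf was at 31.6 CPM in c-Maf KO and 75.4 CPM in control late cells (−1.24), and Nfkbia, the inhibitor that NF-kappa B induces against itself, at 1248 and 1876 CPM (−0.59). The cytokine gene Il1b was at 2171 CPM in c-Maf KO and 2936 CPM in control late cells (−0.44), under the fold rule, and Cxcl2, a neutrophil chemoattractant, at 4620 and 4253 CPM (0.12). Ccl4 took the opposite direction in female-type cells, with a log2 ratio of 1.34. Kupffer cell markers were also lower in c-Maf KO neutrophils (9 of 10 measured, 317 CPM summed in c-Maf KO and 752 CPM in control), and their part in these counts was not tested.

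Cell division genes were lower in c-Maf KO over all neutrophils, but female-type and male-type cells ran opposite ways. Of 24 G2/M genes 21 were lower and 0 higher, with a median of −0.86. Ube2c, which tags mitotic proteins for breakdown, was at 137 CPM in c-Maf KO and 289 CPM in control (log2 ratio −1.08, −1.27 to −0.89), and Top2a at 119 and 192 CPM (−0.68). Within the specific granule range 20 of 23 were lower, so the count was not one of late cells alone. In female-type cells 23 of 23 were lower (median −1.53). In male-type cells 10 of 14 were higher and 0 lower (median 1.16). Within the specific granule range 22 of 23 were lower in female-type cells (median −1.45), and 2 of 14 were higher and 0 lower in male-type cells (median 0.48). Of 18 S phase genes 4 were lower over all neutrophils, among them Rrm2, a ribonucleotide reductase subunit, at 52.7 CPM in c-Maf KO and 107 CPM in control. As a background for the counts by type, 2416 genes had at least 50 UMIs in each type. Of these, 377 were higher and 186 lower in c-Maf KO for the female type. For the male type 110 were higher and 405 lower. No such background by type is given for the specific granule range.

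Of 7 measured myeloid progenitor genes, 3 were higher in c-Maf KO and 0 lower, with a median of 0.59. Sox4, a factor of stem and lymphoid progenitor cells, was at 30.4 CPM in c-Maf KO and 9.95 CPM in control (log2 ratio 1.58), but took the opposite direction in male-type cells (−1.21). Irf8, the factor of the monocyte branch, was at 97.9 CPM in c-Maf KO and 62.9 CPM in control (0.64), and lost its call with no Scrublet doublets (0.33). Nkg7, which killer lymphocytes also express, was at 39.6 CPM in c-Maf KO and 26.2 CPM in control (0.59), and turned to −0.24 with no Scrublet doublets. Granulocyte transcription factors (23 measured), late receptors (20), NADPH oxidase and antimicrobial enzymes (10), stefins and antiproteases (7), retention and egress genes (17) and glycolysis genes (18) gave 0 higher and 0 lower over all neutrophils. Cebpe was at 509 CPM in c-Maf KO and 530 CPM in control. Of 19 interferon-stimulated genes, Irf7 and Slfn4 were higher and Gbp2 lower. Slfn4, a schlafen of myeloid cells, was at 185 CPM in c-Maf KO and 107 CPM in control (log2 ratio 0.79, 0.55 to 1.03), but its ratio in female-type cells was 0.09. Irf7, the factor that amplifies the interferon response, was at 48.1 CPM in c-Maf KO and 30.9 CPM in control (0.63), and at 0.53 with no Scrublet doublets. The inducible heat shock genes Hspa1a and Hspa1b, near-identical copies that can share reads, were at 123 and 88.0 CPM in c-Maf KO and 51.3 and 25.7 CPM in control, and both took the opposite direction in male-type cells (−3.09 and −1.57). Bcl2, which guards cells against death, was at 25.4 CPM in c-Maf KO and 10.5 CPM in control, and took the opposite direction in male-type cells (−2.96).

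Several of the largest ratios were in genes known from other cell types. The highest ratios among genes with at least 100 UMIs were those of Gzmb (granzyme B of killer lymphocytes, 57.6 CPM in c-Maf KO and 1.57 CPM in control) and Ccl5 (172 and 8.91 CPM). The c-Maf KO cell richest in each held 30.7% of the Gzmb UMIs and 34.9% of the Ccl5 UMIs, and all 6 measured T and NK cell markers were higher too, 232 CPM summed in c-Maf KO and 55.5 CPM in control. Cd7, Sox4, Tcf12, Susd3, Apoc2, Krt83, H2-T22 and Pafah1b3 made up the rest of the 12 highest with Hspa1a and Hspa1b. The 12 lowest held Elane, Prtn3, Mpo and Ms4a3 of the primary granule and progenitor stage, the mitotic kinases Aurkb and Pbk, and Plpp3, Igfbp7, Ptprb, Selenop, Gatm and Maf. Plpp3, Igfbp7 and Ptprb are known from endothelium, and 10 of 12 endothelial markers were lower as well, 172 CPM summed in c-Maf KO and 484 CPM in control. Of 5 MHC class II genes H2-Ab1 and H2-Eb1 were higher, and 0 of 5 were with the 5% of neutrophils richest in other cells' RNA left out. The markers that ranked those cells include the MHC class II genes Cd74 and H2-Aa. The loss of calls is therefore partly built in and does not show where that RNA came from. Erythroid markers summed to 49.5 CPM in c-Maf KO and 2200 CPM in control, with 99.3% of the control UMIs in 1 cell. Of 11 eosinophil markers 5 were at 0 in c-Maf KO and 7 in control, Epx in both, and the list summed to 59.7 CPM in c-Maf KO and 58.1 CPM in control, most of it Ear2. Of 12 basophil and mast cell markers 7 were at 0 in c-Maf KO and 9 in control, Mcpt8 in both, and the list summed to 35 UMIs in c-Maf KO, 94.3% of them in 1 cell, and 5 UMIs in control. Monocyte markers gave 0 calls of 9. The part that other cells' RNA had in the calls was not tested.

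Maf encodes a transcription factor of macrophages and endothelium, and few neutrophils held its RNA. Neutrophils had 31 Maf UMIs in 14 c-Maf KO cells (10.95 CPM, 4.32% of cells) and 106 UMIs in 31 control cells (55.5 CPM, 14.6%). B3 lymphoid cells had Maf UMIs in 4.18% of c-Maf KO and 7.70% of control cells. In female-type neutrophils Maf was at 11.9 CPM in c-Maf KO and 14.3 CPM in control, and in male-type neutrophils at 0.975 and 174 CPM. Female-type cells held 13 of the c-Maf KO and 16 of the control Maf UMIs and male-type cells 1 and 36, so much of the Maf RNA of both libraries lay in cells of neither type. Endothelial markers differed in the same direction, with a median log2 ratio of −4.60 over 10 markers in male-type and −0.53 over 6 in female-type cells, and the part of endothelial RNA in the Maf counts was not tested.

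Few differences between the libraries were shared by both sexes. Of 2416 genes with at least 50 UMIs in each type, 0 were higher and 6 were lower in c-Maf KO in both, namely Ccl3, Csta3, Fabp5, Plxnc1, Srsf7 and Ssr4. Called in opposite directions were 155 genes higher in female-type and lower in male-type cells and 55 that ran the reverse way. Ccl3 was at 30.3 CPM in c-Maf KO and 119 CPM in control female-type cells, and at 41.0 and 130 CPM in male-type cells. Retnlg was at 3447 CPM in c-Maf KO and 2166 CPM in control female-type cells, and at 4891 and 7752 CPM in male-type cells, opposite in direction. Stfa1 was at 4920 CPM in c-Maf KO and 11788 CPM in control female-type cells, and at 13399 and 15562 CPM in male-type cells. The log2 ratio had the same sign in 748 genes (31.0%). Within the specific granule range, where 55 c-Maf KO and 51 control female-type cells met 61 and 10 male-type cells, 15 of 1898 genes were higher in both types, 5 lower in both, 29 higher in female-type and lower in male-type cells and 31 the reverse, and 847 (44.6%) had the same sign.

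**Figure D5:**
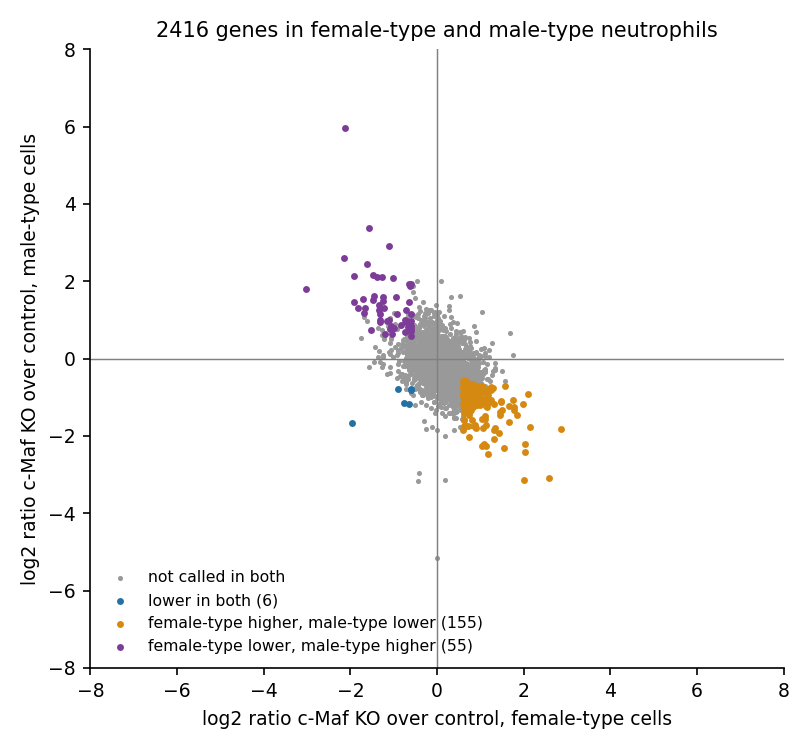
Log2 ratio (c-Maf KO over control) of 2416 genes in neutrophils, female-type cells on the x axis and male-type cells on the y axis. Coloured points are the 6 genes lower in both types, the 155 higher in female-type and lower in male-type cells, and the 55 that run the reverse way, and no gene is higher in both.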

How the data were processed

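The data were UMI counts per gene and barcode of 2 single-cell libraries from sorted liver endothelial and hematopoietic cells at postnatal day 15, with 32285 genes each, and a table of cell annotations. The count tables hold whole-number UMI counts with no normalization, as the authors deposited them. The submitters' processing notes name mm10, FastQC 0.11.3, Cell Ranger 4.0.0 and Seurat 3.2.3, with no order. The labels also name bulk library kits without saying which served here. The percent of mitochondrial UMIs and the cluster names come from the authors' deposited annotation.

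Neutrophils were matched to the counts by barcode. UMIs were summed over cells of a library and scaled to CPM by the summed UMIs. Log2 ratios are of c-Maf KO over control with 0.5 UMI added to each sum, sums at 0 included. List medians cover members with at least 20 UMIs. A call needed at least 1.5-fold, a 95% conditional binomial interval without equality and at least 50 UMIs. Shares have Clopper-Pearson intervals, levels Poisson intervals. All these intervals cover counting error only.

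Named genes were all granule list members, the 12 highest and 12 lowest ratios among genes with at least 100 UMIs, the 5 of each kind within a range, the 10 leading genes of a range and up to 4 members at either end of the other lists. The members and the 30 gene lists were chosen with earlier results of these data known. Other genes named were chosen after their values were seen. Some results are not reported here. Alternatives changed the scale, the minimum, the fold, the cells (thinned, without Scrublet doublets, by sex type) and the mix of ranges. The call rule was run on simulated counts with Poisson spread only. That run held no spread between cells or mice, so it cannot show how the rule fares with such spread. Python 3.11.15, numpy 2.4.6, scipy 1.17.1, pandas 2.3.3, scanpy 1.11.5 with its Scrublet and matplotlib 3.10.9 were used.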

Additional observations from a re-analysis of the deposited data

Results flagged for a closer look

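The difference between c-Maf KO and control neutrophils ran opposite ways in female-type and male-type cells for 3 quantities. The share in the specific granule range differed by −11.1 percentage points for female-type cells and by 40.8 points for male-type cells. The neutrophil share of hematopoietic cells differed by −0.601 points for female-type cells and by 4.80 points for male-type cells. The median log2 ratio of the specific granule genes was −0.28 for female-type cells and 0.45 for male-type cells. Within the specific granule range it was −0.21 for female-type cells and −0.06 for male-type cells, so there the directions were not opposite. Of 2416 genes measured in both types, 155 were higher in c-Maf KO female-type cells and lower in c-Maf KO male-type cells. A further 55 ran the reverse way. The differences between female-type and male-type cells were not tested, since each stands for 1 mouse a library.

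Of 2945 genes with at least 50 UMIs in each of the specific granule and late ranges, 26 were higher in c-Maf KO in both and 20 lower in both. In the specific granule range 205 of them were higher and 81 lower, and in the late range 120 and 80. The ranges gave opposite calls for 7 genes, Apoe, Ddx39b, Ensa, Mat2a, Pltp, Prok2 and Srpk1, and that difference was not tested. Prok2, prokineticin 2, was at 45.9 CPM in c-Maf KO and 28.6 CPM in control specific range cells, and at 93.2 and 274 CPM in late cells.

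Some barcodes without an annotation carried neutrophil RNA. At least 5% of UMIs came from S100a8 and S100a9 in 12 unannotated c-Maf KO barcodes and 5 unannotated control barcodes. Their median depths were 25481.5 and 30748 UMIs.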

How the results depend on the processing

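With 214 genes higher in c-Maf KO over all neutrophils, the count was 802 for female-type cells and 111 for male-type cells, 50 after thinning, 431 for the mean of the cells' own CPM, 327 with at least 20 UMIs, 404 with no minimum and 59 at 2-fold. With 328 lower, it was 114 after thinning, 570 with no minimum and 114 at 2-fold. The primary granule list median log2 ratio of −1.41 was −0.19 in male-type cells, −0.71 after thinning, −0.62 with the control mix of ranges and −0.42 for the mean of the cells' own CPM. The specific granule list median log2 ratio of −0.05 was −0.28 for female-type cells and 0.45 for male-type cells, 0.14 after thinning, −0.15 with the control mix and 0.036 for the mean of the cells' own CPM. The gelatinase granule list median log2 ratio of 0.26 was 0.014 in male-type cells. The difference in the specific granule range share, 8.76 points, was −11.1 for female-type cells and 40.8 for male-type cells, that in the late range share, −8.13 points, was 12.8 and −40.8, and that in the neutrophil share of hematopoietic cells, 1.76 points, was −0.601 and 4.80. In male-type cells the log2 ratio turned round for Apoc2 (−0.67), Aurkb (0.014), Ccl5 (−1.46), Elane (1.72), Gzmb (−0.72), H2-Ab1 (−1.19), H2-Eb1 (−1.81), Hspa1a (−3.09), Hspa1b (−1.57), Irf7 (−0.91), Mpo (0.50), Ms4a3 (2.61), Pbk (0.58), Prok2 (1.79), Prss57 (2.90), Prtn3 (5.97), Ptprcap (−1.45), Sox4 (−1.21), Nkg7 (−0.19), Bcl2 (−2.96), Top2a (2.15), Cdc20 (2.45), Ube2c (1.46), Ccnb2 (0.034), Birc5 (1.55), Rrm2 (3.36) and Mcm6 (1.06). In female-type cells it turned round for Plpp3 (0.43), Ptprb (1.71), Selenop (0.0041), Ccl4 (1.34) and Bcl2a1b (0.80), after thinning for Aurkb (0.63), Krt83 (−0.20) and Orm1 (0.18), and without Scrublet doublets for Nkg7 (−0.24). The cause was not tested. Over single genes and settings, 741 ratios kept their call or, for genes with no main call, stayed inside the main interval whatever their sign. A further 89 lost the call, 39 gained one and 141 of genes with no main call moved outside the main interval. The genes listed as turned round are those with a call over all neutrophils, and sign changes of other genes are not listed. No paired analysis was possible because each group has 1 library. Late cells are shallow, so low genes there were not detectable at this depth, and male-type control cells number only 29.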
